A study of Mus musculus with 18 samples.

Results

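Phosphatidylcholine and phosphatidylethanolamine, the main membrane phospholipids of the liver cell, are built from choline and ethanolamine in parallel branches of the Kennedy pathway: a kinase phosphorylates the base, a CTP-using enzyme activates it to a CDP form, and a transferase joins it to diacylglycerol. The liver also makes phosphatidylcholine by methylating phosphatidylethanolamine, and it spends phosphatidylcholine on lipoprotein coats and bile. The genes described here were 10 listed symbols of these steps: the choline kinases Chka and Chkb, the ethanolamine kinases Etnk1 and Etnk2, the CDP-choline and CDP-ethanolamine forming enzymes Pcyt1a and Pcyt2, the cholinephosphotransferase Chpt1, the methyltransferase Pemt, the glycerophosphocholine phosphodiesterase Gpcpd1 and the phosphatidate phosphatase Lpin1, which supplies diacylglycerol. Of the 10, 9 had a transcript cluster among the 65956 on the array, and the probe table used here named none for Etnk2. Pemt had 5 clusters, of which the one with the highest mean over all arrays was taken, and each of the others had 1. The list was selected on measured values in part: it was drawn up with the large log2 fold changes of Chka and Gpcpd1 between ZT18 and ZT6 known, so those changes are given as a description, with no test.

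RNA from livers of C57BL/6J mice was hybridised to 18 Clariom D arrays, 1 mouse per array, in 6 groups of 3. HFN mice ate a diet with 53% of calories from fat and were given NAD+ at 50 mg/kg, injected each day at ZT11. HF mice ate the same diet and received saline at ZT11. CD mice ate normal chow with 18% of calories from fat. Below, HFN, HF and CD are called the 3 diets for short, although HFN and HF differ by NAD+ and not by food. All mice were 4 weeks old at the start, were fed for 11 weeks under alternating light and dark with food at will, and were killed at ZT18 or ZT6 (zeitgeber time, hours after lights on, so ZT18 lies in the dark, active phase and ZT6 in the light, rest phase). By the study's account the mice were male and the injections covered about the last 3 weeks of feeding. The study also states that mice not given NAD+ were injected with vehicle, which the labels state for HF mice only.

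Values are log2 signals, so a difference of 1 is a doubling. Levels of different genes were not compared, because probe sets differ in brightness. The 6 measured hepatocyte markers lay above the negative-control median on all 18 arrays. Several, such as Alb, Apoa1 and Cps1, sat at or near the ceiling of the table, so their level does not measure hepatocyte content. HFN ZT18 replicate 1 stood apart: its lymphocyte markers averaged 6.72 and its fat cell markers 5.62, against no more than 4.26 and 4.10 on any other array, and the main values that use it are also given without it. On 5 arrays the negative-control probe sets had a higher median (4.91 to 5.01, against 4.58 to 4.76 on the other 13) together with a higher signal of the nuclear RNA Neat1 (11.09 to 15.16, against 7.06 to 8.35). These were CD ZT18 replicates 2 and 3, HF ZT6 replicates 2 and 3 and CD ZT6 replicate 3. In whole liver, fewer cells of a type and less RNA per cell cannot be told apart.

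Of the 9 genes, Chka and Gpcpd1 moved strongly with the time of day, in opposite directions. Lpin1 had its largest difference between HF and CD livers at ZT6, and none of its differences passed the test described below. The other 6 had group means that lay close together. The group means spanned 3.38 for Chka, 3.41 for Gpcpd1 and 2.34 for Lpin1 on the log2 scale, and between 0.25 (Pemt) and 0.64 (Pcyt2) for the other 6.

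**Figure D1:**
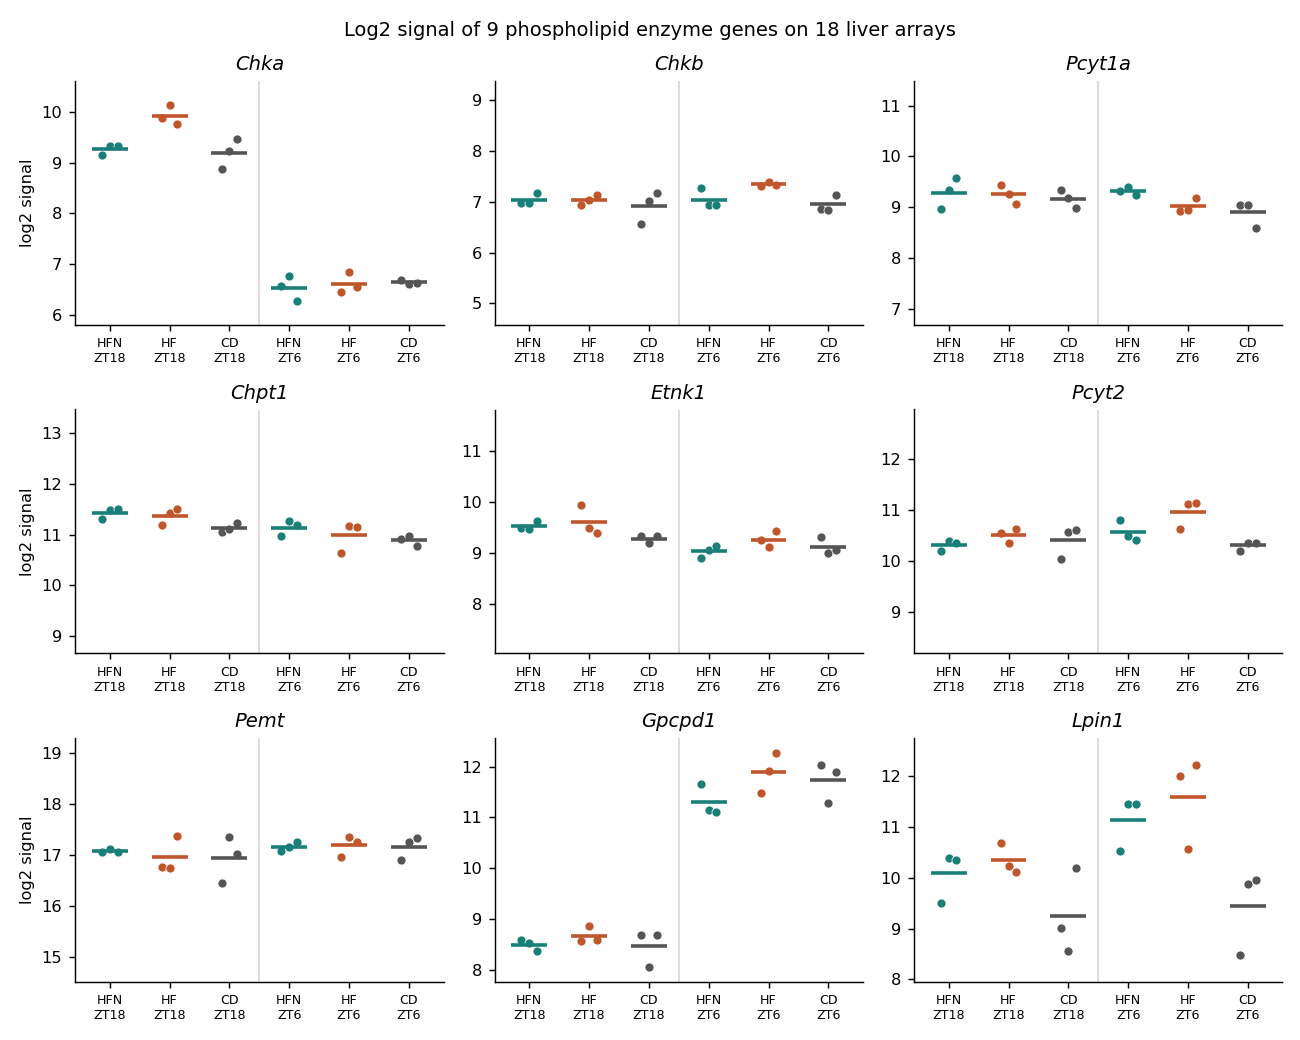
Log2 signal of each of the 9 genes on the 18 arrays (y axis, the same span of log2 units in every panel), by group along the x axis; points are single mice and lines are group means (n = 3 each). Chka was high and Gpcpd1 low in all ZT18 groups, Lpin1 had its lowest group means in CD livers, and the other 6 genes varied little.

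Choline kinase commits choline to the Kennedy pathway, and its isoforms come from separate genes. Chka was measured at 9.15, 9.33 and 9.32 in HFN livers at ZT18, against 6.56, 6.77 and 6.28 in HFN livers at ZT6. In HF livers it was at 9.88, 10.13 and 9.75 at ZT18, against 6.45, 6.84 and 6.54 at ZT6. In CD livers it was at 8.88, 9.22 and 9.47 at ZT18, against 6.69, 6.60 and 6.63 at ZT6. Every ZT18 liver was therefore above every ZT6 liver, and the gap between the lowest ZT18 array and the highest ZT6 array exceeded the spread within any group. ZT18 over ZT6 came to 6.63-fold in HFN, 9.91-fold in HF and 5.86-fold in CD livers (log2 2.73, 3.31 and 2.55, SE 0.15 each), and the HFN value without HFN ZT18 replicate 1 was 2.79 on the log2 scale.

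Chkb, the paralog that encodes the other isoform, showed no such step. It was at 6.97, 6.97 and 7.18 in HFN livers at ZT18, against 7.27, 6.94 and 6.93 in HFN livers at ZT6. In HF livers it was at 6.94, 7.04 and 7.13 at ZT18, against 7.31, 7.40 and 7.34 at ZT6, and in CD livers at 6.56, 7.02 and 7.18 at ZT18, against 6.87, 6.85 and 7.13 at ZT6. The groups overlapped in HFN and CD and not in HF, where the ZT18 minus ZT6 difference was -0.31 (SE 0.14, limma adjusted p = 0.373) and 0.00 with the negative-control median as a covariate. Averaged over the 3 diets the ZT18 to ZT6 difference of Chkb was -0.12 (SE 0.08, 95% interval up to 0.06, limma adjusted p = 0.727), against 2.86 for Chka (SE 0.09), and -0.11 and 2.88 without HFN ZT18 replicate 1. In the RefSeq annotation Chkb lies within the span of a noncoding read-through gene, Gm44502, and overlaps C730034F03Rik, so its probe set may also read those transcripts.

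Sequences before a start site of Chka and Chkb are shown because the genes encode the same activity and differed in their daily change. That of Etnk1 is added as the ethanolamine counterpart. They are the 250 bases before a RefSeq start site on GRCm38.p6, at chr19:3851523-3851772 on the plus strand for Chka, chr15:89429928-89430177 on the minus strand for Chkb and chr6:143166980-143167229 on the plus strand for Etnk1. The Etnk1 window lies wholly and the Chka window partly inside the annotated span of the gene, and the Chkb window lies outside it. Capitals mark CCAAT boxes (CCAAT) and GC boxes (GGGCGG), on either strand.
Chka: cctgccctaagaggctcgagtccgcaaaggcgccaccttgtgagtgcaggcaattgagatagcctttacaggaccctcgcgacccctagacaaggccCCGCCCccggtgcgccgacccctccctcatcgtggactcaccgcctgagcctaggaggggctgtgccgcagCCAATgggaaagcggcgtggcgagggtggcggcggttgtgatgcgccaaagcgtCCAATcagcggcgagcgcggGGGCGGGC
Chkb: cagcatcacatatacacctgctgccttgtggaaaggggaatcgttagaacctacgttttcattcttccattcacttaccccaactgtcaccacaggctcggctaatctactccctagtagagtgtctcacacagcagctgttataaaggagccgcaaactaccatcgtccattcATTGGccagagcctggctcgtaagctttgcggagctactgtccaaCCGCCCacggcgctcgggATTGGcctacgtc
Etnk1: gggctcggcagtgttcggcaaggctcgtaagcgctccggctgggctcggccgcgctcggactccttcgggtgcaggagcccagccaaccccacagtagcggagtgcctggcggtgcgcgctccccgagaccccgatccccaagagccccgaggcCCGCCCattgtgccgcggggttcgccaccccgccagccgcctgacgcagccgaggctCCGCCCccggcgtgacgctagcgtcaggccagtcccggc
The search covered 300 bases per window, from 250 before to 50 after the start, on both strands. The Chka window held 2 CCAAT boxes, first bases at -82 and -28, and 3 GC boxes, of which the last 2 overlap each other and the very last runs past the start. The Chkb window held 2 CCAAT boxes, at -76 and -13, and 1 GC box. The Etnk1 window held no CCAAT box and 3 GC boxes, 1 of them after the start. CCAAT occurred in 37.4% and GGGCGG in 35.7% of all 32851 promoter windows in the table. Of the 9 genes, 7 had windows, 10 in all; Gpcpd1 and Pcyt2 had none in the table. None of the 10 windows held the E-box CACGTG (7.2% of all windows), the related CACGTT (4.7%), a D-box (TTATGTAA or TTACGTAA, 1.1%) or the retinoid orphan receptor element RORE (0.4%), the motifs through which clock proteins are known to act, which says only that these letters are not in these windows.

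Gpcpd1, which cleaves glycerophosphocholine and so returns choline from degraded phosphatidylcholine, ran the other way. It was at 8.58, 8.53 and 8.37 in HFN livers at ZT18, against 11.66, 11.14 and 11.11 in HFN livers at ZT6. In HF livers it was at 8.56, 8.87 and 8.58 at ZT18, against 11.49, 11.92 and 12.27 at ZT6. In CD livers it was at 8.68, 8.06 and 8.69 at ZT18, against 12.04, 11.28 and 11.89 at ZT6. All ZT18 livers were thus below all ZT6 livers, and the 3 diets overlapped at ZT18. On the log2 scale ZT18 over ZT6 came to -2.81 in HFN, -3.22 in HF and -3.26 in CD livers (SE 0.24 each), and to -2.85 in HFN livers without HFN ZT18 replicate 1.

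**Figure D2:**
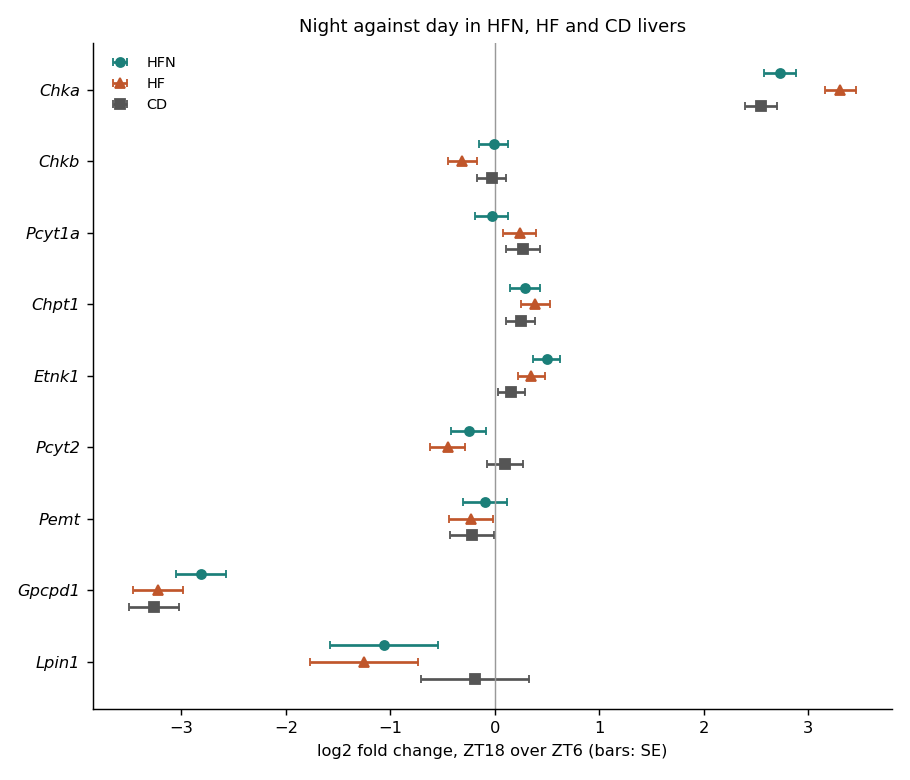
Log2 fold change of ZT18 over ZT6 (x axis) for each gene (y axis) in HFN, HF and CD livers; points are fitted differences and bars their standard errors (3 mice per group and time). Chka lay between 2.55 and 3.31 and Gpcpd1 between -3.26 and -2.81, and the other 7 genes lay nearer 0.

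The transcripts whose 18 centred values lay closest to those of Chka were Cry1, a repressor of the circadian clock (root mean square difference 0.27 on the log2 scale), Arntl, which encodes the clock activator BMAL1 (0.29), and Clpx, a subunit of a mitochondrial protease (0.40). Chka itself had a root mean square of 1.46 around its own mean. Closest to Gpcpd1 were Nr1d2, the clock repressor REV-ERB beta (0.46), Abcg8, a subunit of the sterol exporter of the liver cell (0.65), and Tns2, an adaptor protein of cell adhesions (0.73), against 1.58 for Gpcpd1 itself. The measure is a description over 18 arrays that share their groups, and it reads mostly the step between ZT18 and ZT6: with 2 times a day, it cannot tell apart transcripts that peak at different hours. In the figure of these profiles, Clpx in CD livers at ZT6 is the set of points that departs most visibly from Chka, and its ZT18 over ZT6 difference was 1.76 in CD livers, against 2.55 for Chka there.

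**Figure D3:**
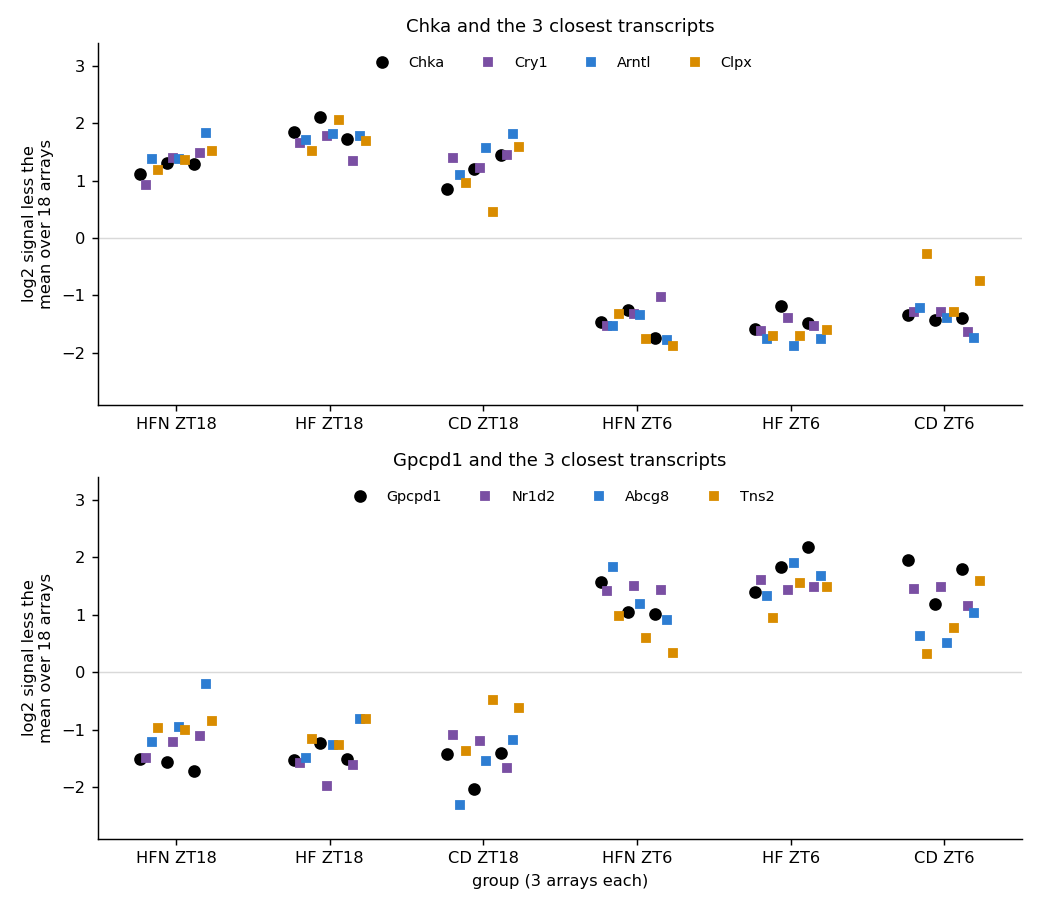
Log2 signal less the mean over the 18 arrays (y axis) of Chka (above) and Gpcpd1 (below) and the 3 transcripts closest to each, by group (x axis, 3 mice each). Cry1 and Arntl lay near Chka on all arrays and Nr1d2 near Gpcpd1, with root mean square differences of 0.27, 0.29 and 0.46.

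Etnk1, the kinase that opens the ethanolamine branch, rose slightly at ZT18. It was at 9.49, 9.48 and 9.62 in HFN livers at ZT18, against 8.91, 9.05 and 9.13 in HFN livers at ZT6, without overlap. It was at 9.94, 9.50 and 9.40 in HF livers at ZT18, against 9.25, 9.11 and 9.43 in HF livers at ZT6, and at 9.33, 9.19 and 9.33 in CD livers at ZT18, against a mean of 9.12 ± 0.17 in CD livers at ZT6 (SD, n = 3), and both of these pairs overlapped. Averaged over the 3 diets, Etnk1 was 1.26-fold higher at ZT18 (log2 0.34, SE 0.07, limma adjusted p = 0.029), past the test used throughout, which asked for a p under 0.05 after adjustment across the whole array and a difference over 0.32 on the log2 scale. The difference lay just above that minimum, and the call was lost in 11 of the 18 fits that left out 1 array (log2 0.28 to 0.37, adjusted p 0.0189 to 0.0695, the highest without HFN ZT6 replicate 1). Those arrays were HFN ZT18 replicates 2 and 3, HF ZT18 replicate 1, CD ZT18 replicates 1 and 3, HFN ZT6 replicates 1 and 2, HF ZT6 replicates 1 and 2 and CD ZT6 replicates 2 and 3. Without HFN ZT18 replicate 1 the adjusted p was 0.0408 and without the 5 arrays with high negative controls it was 0.231.

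Chpt1, which joins activated choline to diacylglycerol, gave a like value that did not pass. It was at 11.30, 11.48 and 11.50 in HFN livers at ZT18, against 10.97, 11.26 and 11.19 in HFN livers at ZT6. It was at 11.20, 11.43 and 11.50 in HF livers at ZT18, against 10.63, 11.18 and 11.16 in HF livers at ZT6, and at 11.06, 11.12 and 11.23 in CD livers at ZT18, against 10.91, 10.98 and 10.77 in CD livers at ZT6. The times did not overlap in any of the diets, and the mean difference was 0.31 (SE 0.08, 95% interval up to 0.47, limma adjusted p = 0.0621; 0.33 and 0.0554 without HFN ZT18 replicate 1). Leaving out 1 array gave an adjusted p of 0.0485 to 0.133, with a call only without HF ZT6 replicate 2. Chpt1 overlaps the protein-coding gene Sycp3 in the annotation.

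Counted over the 9 genes, 2 were past the thresholds of the test between ZT18 and ZT6 in HFN, in HF and in CD livers. Each time these were Chka and Gpcpd1, counted as a description only, where 0.246%, 0.866% and 0.376% of all transcript clusters passed. In the mean over diets Etnk1 was added to them, where 1.6% of all clusters passed. Since Chka and Gpcpd1 were known when the list was made, only the remaining 7 genes can be read against those shares: 0 of 7 passed in each single diet by limma and 1 of 7 in the mean. At an unadjusted p under 0.05 with the same fold minimum, 1 of these 7 passed in HFN (Etnk1; 4.11% of all clusters), 4 in HF (Pcyt2, Etnk1, Chpt1 and Lpin1; 8.83%) and 0 in CD (4.15%), and in the mean over diets 2 did (Etnk1 and Lpin1; 3.8%). Counted by overlap in HFN livers, Etnk1 and Chpt1 of these 7 had all ZT18 values above all ZT6 values, as did 6.67% of all clusters. Pcyt2 and Lpin1 had them below, as did 4.66%. Without HFN ZT18 replicate 1 the same genes stood apart, beside 19.1% and 7.21% of clusters, with 2 HFN arrays left at ZT18. In HF livers Chpt1 lay above, beside 10% of clusters, and Chkb and Pcyt2 below, beside 10.7%. In CD livers Chpt1 lay above, beside 5.14%, and none of the 7 below, beside 4.84%. As a description, Chka lay above and Gpcpd1 below without overlap in HFN, HF and CD livers. Of the 7, only Chpt1 had its times apart in all 3 diets, and its mean difference did not pass the test. The share of all clusters with times apart in all 3 diets was not counted.

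NAD treatment was compared with saline on the same diet. No gene of the 9 passed between HFN and HF livers at either time by limma, and none of the 65956 clusters did (0%), while 1851 clusters at ZT18 (2.81%) and 2685 at ZT6 (4.07%) had an unadjusted p under 0.05 with the fold minimum. Among the 9 genes, 1 did so at ZT18 (Chka) and 2 at ZT6 (Gpcpd1 and Pcyt2). In the mean of both times 0 of 9 passed and 2 had an unadjusted p of that size (Chka and Gpcpd1), as had 1.8% of all clusters. Chka at ZT18 is also among the genes the study lists as changed by NAD on these arrays, and as changed between CD and HF livers. Its HFN over HF and HF over CD values at ZT18 are therefore not independent evidence. The study reported many transcripts as differing between HFN and HF livers at both times. None passed in the fit used here, Chka included, and the reason for this disagreement was not tested.

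Chka at ZT18 was 0.636 times as high in HFN livers as in HF livers (log2 -0.65, SE 0.15, 95% interval -0.99 to -0.32, limma unadjusted p = 0.000817, adjusted p = 0.75), and the 3 HFN values lay below the 3 HF values given above. Of all clusters, 4.73% had HFN values entirely below HF values at ZT18. Without HFN ZT18 replicate 1 the difference was -0.59 (SE 0.18, adjusted p = 0.395), so it was nearly as large without the array with lymphocyte and fat cell markers. HF livers were 1.66-fold above CD livers at ZT18 (log2 0.73, SE 0.15, 95% interval 0.40 to 1.06, adjusted p = 0.0507), again without overlap, as in 8.42% of all clusters. This value passed in 4 of the 18 fits that left out 1 array, those without HFN ZT6 replicate 3 (0.0451), CD ZT18 replicate 3 (0.0463), CD ZT18 replicate 1 (0.0467) or HF ZT6 replicate 2 (0.0493), and the highest adjusted p was 0.257, without HF ZT18 replicate 2. HFN and CD livers overlapped at ZT18, with a difference of 0.08 (95% interval -0.26 to 0.41, adjusted p = 0.884), or 0.14 without HFN ZT18 replicate 1. These comparisons share the HF or CD arrays, and HFN over HF and HF over CD repeat contrasts for which the study names Chka. The order of Chka was thus HF ZT18 first, then HFN ZT18 and CD ZT18, which did not differ beyond their spread, and then the 3 ZT6 groups, whose means lay between 6.54 and 6.64.

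At ZT6 Chka did not separate HFN, HF and CD livers (HFN minus HF -0.07, HF minus CD -0.03, SE 0.15 each). The ZT18 minus ZT6 change was thus 0.58 smaller in HFN than in HF livers (SE 0.22, limma adjusted p = 0.773). Without HFN ZT18 replicate 1 this difference was -0.52 on the log2 scale. The change was 0.76 larger in HF than in CD livers (SE 0.22, limma adjusted p = 0.463). Neither difference of changes passed the test, as was so for all clusters (0%), although 3297 clusters (5%) for HFN against HF and 5330 (8.08%) for HF against CD had an unadjusted p under 0.05 with the fold minimum, among them 1 of the 9 genes (Chka) and 2 of the 9 (Chka and Pcyt2). Gpcpd1 at ZT6 had a mean of 11.30 ± 0.31 in HFN livers, against 11.89 ± 0.39 in HF livers (SD, n = 3 each), a log2 difference of -0.59 (SE 0.24, adjusted p = 0.693) with overlapping values.

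**Figure D4:**
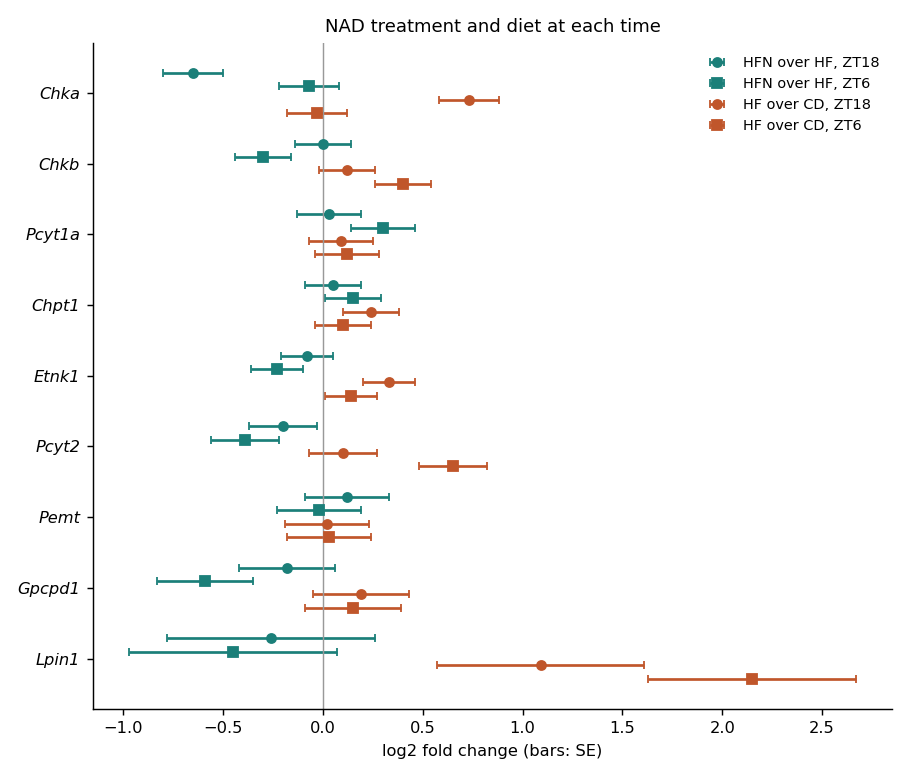
Log2 fold change (x axis) of HFN over HF and of HF over CD at ZT18 and at ZT6 for each gene (y axis); points are fitted differences and bars their standard errors (3 mice per group). Chka at ZT18 lay at -0.65 for HFN over HF and 0.73 for HF over CD, and Lpin1 had the widest bars, with 2.15 for HF over CD at ZT6.

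Between HF and CD livers none of the 9 genes passed, and the differences ran from near 0 for Pemt to the several-fold difference of Lpin1. Averaged over both times, all 9 had a positive HF minus CD difference with a median of 0.24, beside a median of 0.00 and 50.8% positive over all clusters, and 0 of 9 passed the test by limma, where 0.52% of all clusters passed. At an unadjusted p under 0.05 with the fold minimum there were 3 (Chka, Pcyt2 and Lpin1), beside 3.53% of all clusters. The values over all clusters are not a like reference for the 9 genes. Only 34.8% to 42.9% of clusters lay above the negative-control median of an array, while the 9 genes did so on all arrays. The signs of the smallest differences were not stable. Without the 5 arrays with high negative controls Gpcpd1 had -0.09, against 0.17 with all arrays, and Pcyt1a had -0.10, against 0.10. Pemt, at 0.02, turned negative in the fits without 4 single arrays (CD ZT18 replicate 1, CD ZT6 replicate 1, HF ZT18 replicate 3 and HF ZT6 replicate 2). At ZT18 0 of 9 passed (0.606% of all clusters; 2 of 9 and 8.87% of all clusters unadjusted) and at ZT6 0 of 9 passed (0.044%; 3 of 9 and 3.36% unadjusted). Between HFN and CD livers, 0 of 9 passed at ZT18 (1.06% of all clusters; 0 of 9 and 10% unadjusted) and 0 of 9 at ZT6 (0.0318%; 2 of 9 and 2.12% unadjusted). By overlap, HF livers at ZT18 lay entirely above CD livers for 2 of the 9 genes (Chka and Etnk1), beside 8.42% of all clusters, and entirely below for 0, beside 7.41%. HFN livers at ZT18 lay entirely above CD livers for 2 (Etnk1 and Chpt1), beside 8.45% of clusters, and below for 0, beside 6.72%. Without HFN ZT18 replicate 1 they lay above for 4 (Pcyt1a, Etnk1, Chpt1 and Lpin1), beside 20.6%. Without that array HFN livers at ZT18 lay entirely below HF livers for 2 genes (Chka and Gpcpd1), beside 7.35%. At ZT6 HFN livers lay above CD livers for 3 (Pcyt1a, Pcyt2 and Lpin1), beside 5.71%, and below for 0, beside 3.55%.

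Lpin1, which dephosphorylates phosphatidate to diacylglycerol and is known as a fasting-responsive gene of the liver, had the largest difference between diets. At ZT6 it was at 10.52, 11.46 and 11.45 in HFN livers, at 12.00, 10.56 and 12.22 in HF livers and at 8.49, 9.87 and 9.96 in CD livers. At ZT18 it was at 9.51, 10.39 and 10.36 in HFN livers, at 10.69, 10.23 and 10.12 in HF livers and at 9.01, 8.56 and 10.20 in CD livers. All HFN and HF livers at ZT6 were above all CD livers at ZT6, while at ZT18 the diets overlapped through the highest CD liver. HF over CD was 4.45-fold at ZT6 (log2 2.15, SE 0.52, limma adjusted p = 0.318), 2.13-fold at ZT18 (log2 1.09, SE 0.52, adjusted p = 0.412) and 3.08-fold in the mean (log2 1.62, SE 0.37, 95% interval up to 2.41, adjusted p = 0.073). The mean difference passed in the fits without HF ZT6 replicate 2, the lowest HF value at that time (adjusted p = 0.0345), and without CD ZT18 replicate 3, the highest CD value at ZT18 (adjusted p = 0.0408).

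HFN over CD at ZT6 was 3.25-fold (log2 1.70, SE 0.52, adjusted p = 0.732). Lpin1 at ZT18 was 0.481 times its ZT6 level in HFN livers and 0.421 times in HF livers (SE 0.52 each on the log2 scale), with non-overlapping times in HFN only. The CD difference was -0.19 on the log2 scale, and none of these passed (limma adjusted p = 0.716 in HFN, 0.321 in HF and 0.998 in CD). Without HFN ZT18 replicate 1, whose value was the lowest of its group, the HFN difference was -0.77 on the log2 scale (SE 0.57). The transcripts closest to Lpin1 over the 18 arrays were its paralog Lpin2 (root mean square difference 0.64), Cpt1a, which imports fatty acids into mitochondria (0.68), and Hs6st1, a heparan sulfate sulfotransferase (0.70), against 1.01 for Lpin1 itself, so the likeness was loose. Lpin1 overlaps the gene Ntsr2 in the annotation.

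A promoter window of Lpin1 is shown because the gene had the largest difference between diets. It is the 250 bases before a RefSeq start, at chr12:16610967-16611216 on the minus strand of GRCm38.p6. This window lies inside the annotated span of the gene (16535669 to 16653903), so it is not the sequence before the gene's outermost start. A nuclear receptor half-site (AGGTCA) is in capitals.
Lpin1: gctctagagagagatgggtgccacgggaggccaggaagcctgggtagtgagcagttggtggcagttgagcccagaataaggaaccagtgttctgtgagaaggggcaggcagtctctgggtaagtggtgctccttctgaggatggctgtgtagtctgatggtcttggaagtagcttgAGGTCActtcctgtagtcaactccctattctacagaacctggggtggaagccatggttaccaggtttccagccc
The half-site starts at -74 and was the single match in this window among the motifs searched. AGGTCA, which is also part of the RORE, occurred in 16.3% of all windows.

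Pcyt2, which forms CDP-ethanolamine and limits the ethanolamine branch, was highest in HF livers at ZT6. It was at 10.80, 10.48 and 10.41 in HFN livers, 10.62, 11.11 and 11.13 in HF livers and 10.20, 10.36 and 10.36 in CD livers at ZT6, so that both high-fat groups lay above CD and HFN overlapped HF. At ZT18 the means were 10.31 ± 0.11 in HFN, 10.51 ± 0.14 in HF and 10.40 ± 0.33 in CD livers (SD, n = 3 each), and the groups overlapped. HF over CD was 1.56-fold at ZT6 (log2 0.65, SE 0.17, 95% interval up to 1.00, limma adjusted p = 0.374) and 0.10 on the log2 scale at ZT18, and the ZT18 minus ZT6 change differed between HF and CD by -0.54 (adjusted p = 0.521), a value that was 0.14 without the 5 arrays with high negative controls. Chkb at ZT6 also lay without overlap above CD in HF livers (7.31 to 7.40, against 6.85 to 7.13, a log2 difference of 0.40, SE 0.14, adjusted p = 0.658). At ZT6, 3 of 9 genes had HF values entirely above CD values, Chkb, Pcyt2 and Lpin1, as did 6.1% of all clusters, and 0 had them entirely below, as did 4.79%. HF livers at ZT6 also had the highest macrophage marker level, with a list mean of 8.69 to 9.28 over 8 markers, against 7.99 to 8.69 in CD livers at ZT6, and 2 of the 3 had high negative controls; the part of either in these differences was not tested. With the median of the negative controls as a covariate, the ZT6 differences were 0.42 for Pcyt2 (SE 0.13), 0.19 for Chkb (SE 0.11) and 2.06 for Lpin1 (SE 0.59). The HFN minus HF difference of Chkb at ZT6 was 0.01 with it and -0.30 without it.

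Pcyt1a, which forms CDP-choline and sets the rate of the choline branch, had group means between 8.90 and 9.32. At ZT6 it was at 9.32, 9.39 and 9.25 in HFN livers, 8.92, 8.95 and 9.19 in HF livers and 9.05, 9.05 and 8.60 in CD livers, so HFN lay above both. HFN over CD at ZT6 was 1.34-fold (log2 0.42, SE 0.16, limma adjusted p = 0.999) and HFN over HF 1.23-fold (log2 0.30, SE 0.16, adjusted p = 0.736). At ZT18 the means were 9.29 ± 0.31 in HFN (9.45 without replicate 1), 9.26 ± 0.18 in HF and 9.17 ± 0.17 in CD livers. Between HFN and HF at ZT6, Pcyt1a was the 1 gene of 9 entirely higher in HFN and Chkb the 1 entirely lower, where 6.39% and 6.69% of all clusters were.

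By the cluster used, Pemt, the liver enzyme that methylates phosphatidylethanolamine, had the narrowest span of group means of the 9 (0.25). Its range over single arrays, 0.92, was nevertheless wider than that of Chkb (0.84) or Chpt1 (0.87). Its means at ZT18 were 17.08 ± 0.03 in HFN, 16.96 ± 0.35 in HF and 16.94 ± 0.46 in CD livers, and at ZT6 17.17 ± 0.10 in HFN, 17.19 ± 0.21 in HF and 17.16 ± 0.23 in CD livers (SD, n = 3 each). The groups overlapped in all 9 comparisons made between single groups. The 95% interval of the HFN over HF difference ran up to 0.56 at ZT18 and 0.42 at ZT6, and that of HF over CD up to 0.46 and 0.47, so changes of about that size could have been missed. All these values are of the brightest Pemt cluster, which is named as unmapped. The Pemt cluster named for chromosome 11, where the gene lies, was less flat. Its group means ran from 11.80 ± 0.26 in HF livers at ZT18 to 12.21 ± 0.16 in HF livers at ZT6 (SD, n = 3 each). Pemt overlaps the noncoding gene Gm38498 in the annotation.

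Of 87 further genes of phospholipid metabolism, listed in 7 groups, 82 had a transcript cluster and 19 passed in at least 1 of the 14 comparisons, as did 3.03% of all clusters. None of the 82 passed between HFN and HF livers by limma (6 at ZT18 and 7 at ZT6 had an unadjusted p under 0.05 with the fold minimum, beside 2.81% and 4.07% of all clusters). In the mean of both times, 6 rose and 2 fell in HF against CD livers, where 0.52% of all clusters passed. In the mean of the diets 4 rose and 2 fell at ZT18 against ZT6, where 1.6% passed. The lists were chosen with results of these data known, so these shares describe them only. All 32 calls of these genes, counted over comparisons, were also made without HFN ZT18 replicate 1. Of the 19 calls given below, 11 were kept whichever array was left out and 8 were lost without 2 to 8 single arrays each. The highest adjusted p came without HF ZT18 replicate 2 for Bhmt (0.159), Plpp3 (0.129), Nnmt at ZT18 (0.111), Lpcat3 (0.0881), Ptpmt1 (0.0778) and Gpam (0.0717). It came without HFN ZT18 replicate 3 for Gpat3 (0.106) and without HF ZT6 replicate 3 for Mtr (0.0895). Arrays whose removal lost at least 1 of these 8 calls were all HF arrays, all CD ZT6 arrays, CD ZT18 replicates 2 and 3, HFN ZT18 replicates 2 and 3 and HFN ZT6 replicate 2. Without the 5 arrays with high negative controls, 14 of the 19 calls were lost. Those of Bhmt, Bhmt2, Gde1 and Ahcy and of Pctp between HFN and CD were kept. Of all 32 calls, 17 were lost with only the compared groups in the fit, which was not run for the mean of the diets. With the negative-control covariate 12 of the 32 were lost. The Bhmt call was lost under both of these settings. None of the 19 changed sign under any setting run.

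Among 12 other head group enzymes, Selenoi and Ptpmt1 passed. Selenoi, the ethanolamine phosphotransferase that completes the ethanolamine branch, had means of 10.49 ± 0.27 in HFN, 10.63 ± 0.01 in HF and 10.17 ± 0.16 in CD livers at ZT18, against 9.82 ± 0.23 in HFN, 9.79 ± 0.09 in HF and 9.97 ± 0.12 in CD livers at ZT6 (SD, n = 3 each). Its mean difference was 0.57 (log2, SE 0.08, limma adjusted p = 0.000929), or 0.62 without replicate 1 of HFN ZT18, so Selenoi rose at ZT18. The call was lost with a 1.5-fold minimum and without the 5 arrays with high negative controls. In the same branch Etnk1 also rose, with a call lost in 11 of the 18 fits that left out 1 array. Pcyt2 of that branch had a negative mean difference (-0.20, SE 0.10, limma adjusted p = 0.483). Ptpmt1, a phosphatase of cardiolipin synthesis, was 0.57 higher at ZT18 in HF livers than in CD livers (SE 0.09, adjusted p = 0.0129). Of 12 breakdown enzymes, Gde1, a glycerophosphodiesterase, rose at ZT18 by 0.73 in the mean (SE 0.11, adjusted p = 0.00153), opposite in direction to Gpcpd1. Etnppl, which degrades phosphoethanolamine, fell in HF livers, with means of 10.34 ± 0.18 in HF and 12.28 ± 0.53 in CD livers at ZT18 and 9.79 ± 0.22 in HF and 11.66 ± 0.87 in CD livers at ZT6 (mean log2 difference -1.91, SE 0.29, adjusted p = 0.00674).

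Of 16 genes that acylate glycerol phosphate or handle phosphatidate and diacylglycerol, 5 passed. Gpam, the mitochondrial glycerol phosphate acyltransferase, was higher in HF than in CD livers by 1.71 in the mean (SE 0.31, limma adjusted p = 0.021), and Agpat3, which acylates lysophosphatidate, by 0.54 (SE 0.05, adjusted p = 0.000231). Agpat3 stood at 10.39 ± 0.13 in HFN, 10.38 ± 0.05 in HF and 9.69 ± 0.05 in CD livers at ZT18, so HFN and HF did not separate. Gpat3, an acyltransferase of the endoplasmic reticulum, was higher in HFN than in CD livers at ZT18 by 0.71 (SE 0.14, limma adjusted p = 0.0232). Without replicate 1 of HFN ZT18 the difference was 0.83. The CD values of Gpat3 at ZT18, 4.61 to 4.87, lay near the negative-control medians of those arrays (4.67 to 4.91), so they cannot be told from background. Gpat3 had 2 clusters, and its call was lost with their mean. Plpp3, a lipid phosphate phosphatase, fell at ZT18 in HF livers by 1.77 (SE 0.35, adjusted p = 0.0293). Of 12 acyl chain remodelling enzymes, Lpcat3, which places polyunsaturated chains into phosphatidylcholine, was higher in HF than in CD livers by 0.47 (SE 0.09, adjusted p = 0.0268), and Lclat1, an acyltransferase of cardiolipin and phosphatidylinositol, fell at ZT18 by 0.46 in the mean (SE 0.09, adjusted p = 0.0141).

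Of 8 genes of phospholipid carriage and export, 2 rose in HF livers. Pctp, the phosphatidylcholine transfer protein, had means of 13.02 ± 0.47 in HFN, 12.48 ± 0.31 in HF and 10.92 ± 0.61 in CD livers at ZT18 and 12.64 ± 0.36 in HFN, 12.37 ± 0.29 in HF and 11.35 ± 0.18 in CD livers at ZT6 (SD, n = 3 each). HF exceeded CD by 1.29 in the mean (log2, SE 0.21, limma adjusted p = 0.0105) and HFN exceeded CD by 2.10 at ZT18 (SE 0.30, adjusted p = 0.00432; 2.37 without replicate 1 of HFN ZT18). Abcb4, which flips phosphatidylcholine into bile, was higher in HF than in CD livers by 0.86 in the mean (SE 0.14, adjusted p = 0.00884).

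Of 9 genes that supply or use the methyl groups of the PEMT reaction, 4 passed. Nnmt, which methylates nicotinamide, fell in HF livers, at 6.35 ± 0.49 in HF against 8.19 ± 0.21 in CD livers at ZT18 (log2 difference -1.84, SE 0.32, limma adjusted p = 0.0196); HFN livers were at 7.29 ± 0.45 there (7.41 without replicate 1), 0.94 above HF (SE 0.32, adjusted p = 0.853). Mtr, methionine synthase, was higher in HF than in CD livers by 0.39 in the mean (SE 0.08, adjusted p = 0.0304). Ahcy, which removes the product of methylation, rose at ZT18 by 0.44 (SE 0.06, adjusted p = 0.00134), and Cbs, which draws homocysteine into cysteine synthesis, fell by 0.88 (SE 0.16, adjusted p = 0.00968). Of 13 genes of choline uptake and oxidation, Bhmt and Bhmt2 passed. Bhmt, the betaine-homocysteine methyltransferase, rose at ZT18 in HF livers by 1.97 (SE 0.40, adjusted p = 0.0347). Bhmt2 rose at ZT18 by 0.60 in the mean of the diets (SE 0.12, adjusted p = 0.0184). Bhmt had 2 clusters. The one used is named for chromosome 18, while that of Bhmt2 is named for chromosome 13. Which locus the Bhmt cluster reads was not tested. The Bhmt call was kept with the mean of its clusters. Bhmt values in HF livers at ZT18, 19.00 to 19.43, lay near the ceiling of the table.

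**Figure D5:**
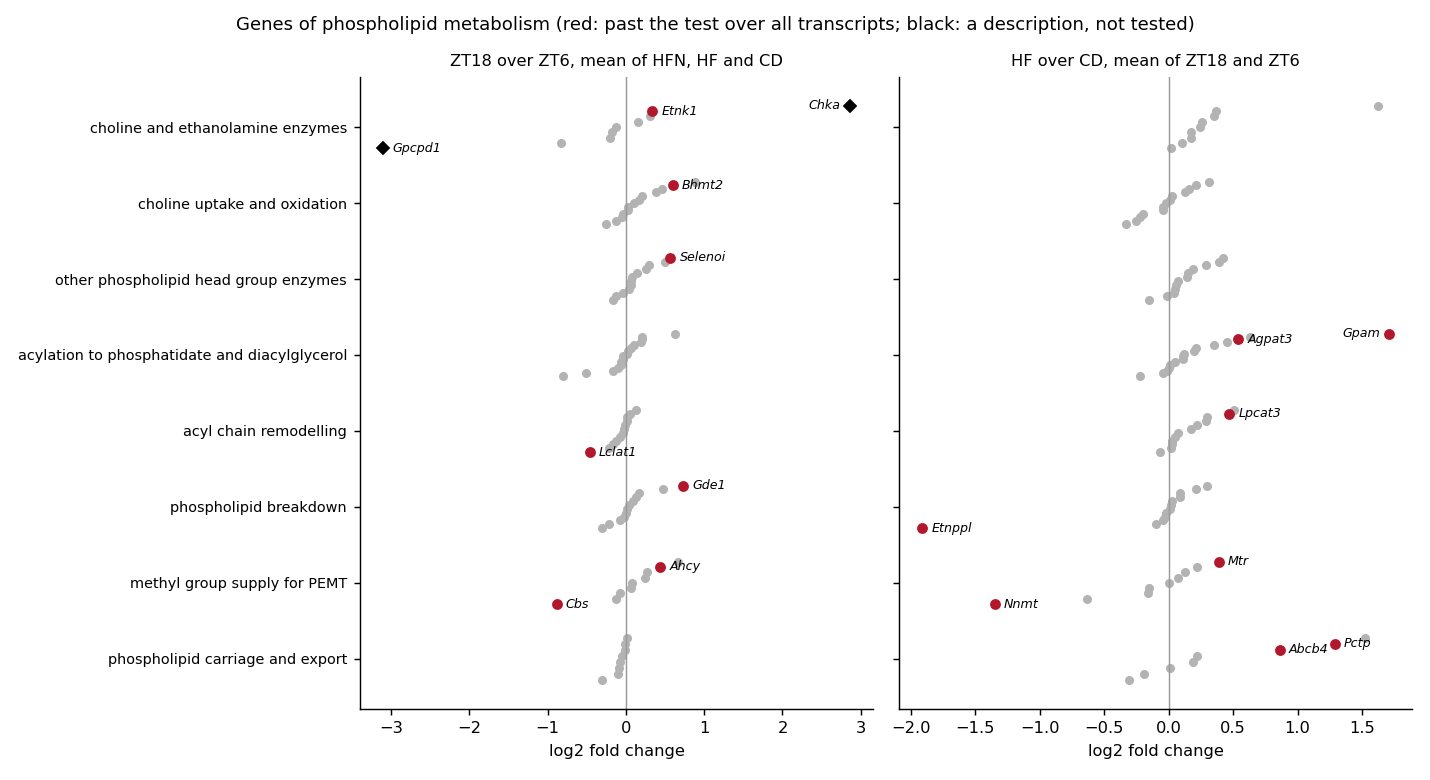
Log2 fold change (x axis) of ZT18 over ZT6 in the mean of HFN, HF and CD livers (left) and of HF over CD in the mean of both times (right) for the 9 genes and 7 groups of further genes (y axis); each point is a gene. Red points passed the test over all transcript clusters, 6 of 82 further genes on the left and 8 of 82 on the right, and black points are Chka and Gpcpd1, given without a test.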

How the data were processed

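Liver RNA of 18 mice was labelled by the authors and hybridised to Clariom D arrays, 1 mouse per array. The deposited table holds log2 signals per transcript cluster, which the authors made with the Transcriptome Analysis Console at its default settings; which summarization step and genome build it used was not given in the sources used here. Of the 72688 entries, 6732 control probe sets were left out of the tests, leaving 65956 transcript clusters, of which 31292 had 1 gene symbol in the platform annotation, 1522 had several and 33142 had no listed symbol. No intensity filter was applied, and the number of arrays limits the precision.

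Groups came from the sample titles. The deposited values were modelled by group, 1 mean for each, with limma 3.58.1 (lmFit and eBayes, R 4.3.3; 12 residual degrees of freedom) for 14 comparisons. P-values were adjusted over all clusters (Benjamini-Hochberg) and a cluster was called at an adjusted p under 0.05 with a log2 difference over 0.32. The fit was tested on simulated data. Replicate numbers did not pair the samples: the correlation of deviations between same-numbered arrays ran from -0.38 to 0.65, and in no comparison were all 3 pairs over 0.1.

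The members and all gene lists were chosen with earlier results of these data known. All members with a cluster are named, and from each further list up to 4 called genes with the largest change; Dgat1 was the called gene this left out. Likeness is the root mean square difference of centred values over 18 arrays. Promoter sequences are those of RefSeq on GRCm38.p6, and 7 of 9 genes matched. Alternatives were other fold minimums, unadjusted p, the compared groups alone, a replicate block, the brighter 32978 clusters, quantile normalization, an intensity trend with robust prior, a negative-control covariate, removal of 5 arrays, averaging of clusters per symbol and leaving out each array. The refits of the further genes and the values and overlaps without HFN ZT18 replicate 1 were chosen after seeing the data.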

Additional observations from a re-analysis of the deposited data

How the results depend on the processing

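Chka and Gpcpd1 kept their direction between ZT18 and ZT6 under every alternative run. Of the 126 member differences, 53 had the other sign under at least 1 alternative; none of them was a called value, and the largest in size was that of Pcyt2 for the HF minus CD difference of the daily change, 0.14 without the 5 arrays with high negative controls, against -0.54 with all arrays. The counts of the 9 genes called changed as follows. With an unadjusted p under 0.05 they were 3 between ZT18 and ZT6 in HFN, 6 in HF and 4 in the mean of the diets, 1 between HFN and HF at ZT18 and 2 at ZT6, 2 between HF and CD at ZT18 and 3 at ZT6, 2 between HFN and CD at ZT6, 3 for HF against CD and 2 for HFN against HF in the mean of both times, and 2 and 1 for the HF minus CD and HFN minus HF differences of the daily change. With only the compared groups in the fit, 0 were called between ZT18 and ZT6 in CD, so Chka and Gpcpd1 fell short of the thresholds there. In that fit fewer arrays estimate the spread, and 1 cluster of all was called. Chka and Gpcpd1 are in the counts between ZT18 and ZT6 as a description only. Between HF and CD at ZT18, 1 was called (Chka) with the brighter clusters (adjusted p = 0.0331) and with quantile normalization (0.0339). For HF against CD in the mean of both times, 1 was called with the brighter clusters (Lpin1, 0.0467), with quantile normalization and with the negative-control covariate (Pcyt2 in both, 0.0478 with the covariate).

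The replicate numbers did not pair the samples. With the replicate block, Chka between HF and CD at ZT18 had an adjusted p of 0.0404, so 1 gene was called there, and Etnk1 in the mean of the diets 0.0303; the block changed no other call of the 9 genes. Leaving out each array in turn gave 0 to 1 calls for HF against CD at ZT18 and in the mean of both times, 2 to 3 for the mean daily change, 2 to 2 for it in each diet and 0 to 0 for the other comparisons. Etnk1 also lost its call with quantile normalization (0.32, under the fold minimum), with the trend and robust prior (adjusted p = 0.0546), with the negative-control covariate (0.0606), without the 5 arrays (0.231) and with a 1.5-fold minimum. The cause of these changes was not tested. With 3 mice per group, Chka at 0.73 between HF and CD livers at ZT18 was not called, so a difference of that size between single groups can be missed, and values below the negative-control median cannot be told from background.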
